A study of Mus musculus with 2 samples.

Results

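The genes described here are 45 genes of the cell cycle and of DNA replication, chosen by symbol; the platform annotation ties 12393 genes in all to a probe set of their own. RNA came from a piece of distal colon of wild-type mice (strain label FVB, written TVB in the design text) and of mice of the IL-9 transgenic line labelled Tg5, kept free of specific pathogens. Each genotype had 1 array, hybridised with RNA pooled from 4 mice, so 1 pool stood against 1 pool. The transgene's promoter, the background strain of Tg5 and the age of the mice are not given in the sources used here. Of the 45 genes, 44 had a probe set with a single gene symbol, and these genes had 89 such probe sets. The intensity of the cyclin gene Ccnb1 was not analysed here, while its promoter was included in the promoter counts. A gene was called measured when its brightest probe set was brighter than 19.8 on at least 1 array; this value, called the floor, is the 40th percentile of the probe sets that are not controls. This held for 38 of the 44, and 34 exceeded the floor on both arrays.

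In a dividing cell, D-type and E-type cyclins with their kinases drive the passage from G1 into S phase, where DNA is copied from origins that were licensed beforehand. The cyclin A and B kinases then start mitosis, the spindle checkpoint delays anaphase until chromosomes are attached, and the anaphase-promoting complex releases them. In the colon, division is concentrated in the lower crypt, where progenitors divide before their daughters move up and differentiate. Transcription of S phase genes is classically tied to E2F factors. That of G2 and mitosis genes is classically tied to the DREAM and MuvB complexes, which bind the cell cycle genes homology region (CHR) beside CCAAT boxes.

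With 1 array per genotype there is no spread between animals or pools, so the differences carry no test and no p-value. All differences below are log2 ratios of transgenic over wild-type intensity, and values below the floor were set to it first. The transgene itself was visible, as Il9 read 5.14, under the floor, in the wild-type pool and 862 in the transgenic one, at least 43.6-fold higher. The arrays were alike in median intensity, 34.0 for wild type against 34.2. Gapdh control probes gave a 3′ to 5′ signal ratio, a measure of RNA degradation, of 0.719 in wild type against 0.762, and Actb probes one of 1.38 against 1.30. The wild-type pool stood apart by its pancreatic acinar genes, of which 8 listed genes made up 0.757% of its summed intensity against 0.0495% in the transgenic pool. As a technical yardstick, probe sets of one gene differed in log2 ratio with a pooled SD of 0.28 over 2847 genes, and of 0.23 over the 16 cell cycle genes that had several. Levels of different genes are not set against each other, because probe sets differ in affinity.

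The cell cycle genes differed little between the pools, and the 4 that were at least 1.5-fold higher were 1 gene of nucleotide supply and 3 of G2 and mitosis. In RNA of whole tissue, a larger share of dividing cells and more of these transcripts per dividing cell cannot be told apart. None of the 38 measured genes was at least 2-fold higher in the transgenic pool, against 0.767% of all 8346 measured genes, and none was at least 2-fold lower, against 0.611%. At 1.5-fold, a threshold added after the values were seen, 4 were higher (background 4.09%) and 0 lower (background 2.85%). The 4 were Tk1, Cenpa, Mki67 and Ube2c, each read by the only probe set of its gene. A log2 ratio above 0 was found in 25 of 38, which is 65.8%, against 56% of all measured genes. A log2 ratio above the yardstick of 0.28 was found in 12 of 38, against 18.2% of all measured genes, and 1 lay below −0.28, against 13.3%. The median was 0.14 for the measured cell cycle genes and 0.04 for all measured genes. By phase, the median was 0.18 for 4 G1 genes, −0.02 for 17 S phase genes and 0.22 for 17 G2 and mitosis genes. The difference between phases was not tested. The S phase median was 0.12 when only probe sets with no mark for shared probes or transcripts (_a, _s or _x) were kept. A wider list of G2 and mitosis genes had a median of 0.06. Genes with 1 array at the floor are counted at their bound. The filter admits a gene through either array, so these counts and medians describe the genes that passed it.

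The promoters of the 2 phases differ in sequence, and this was read from RefSeq windows of 250 bases before to 50 bases after each annotated start (GRCm38.p6). Windows were found for 37 of the 45 genes, 3 of which had several. Those without one were Ccnd1, Ccnd2, Mcm4, Gmnn, Ccna2, Foxm1, Aurkb and Kif20a. Words of the E2F motif (TTTGGCGC, TTTCCCGC, TTTCGCGC or TTTGCCGC) and of the CHR (TTTGAA or TTCGAA) and the CCAAT box were searched on both strands, and a gene was counted when any of its windows held one. An E2F word stood in 7 of 17 S phase genes (41.2%) and in 1 of 17 G2 and mitosis genes (5.88%), Cdk1. Among all 27025 genes of the table the share was 2.61%, and among the 6783 measured genes with a window 4.85%. A CHR word stood in 13 of 17 G2 and mitosis genes (76.5%) and in 3 of 17 S phase genes (17.6%), Mcm2, Mcm7 and Cdc45. The share was 21.7% of all genes and 16.4% of the measured ones. Each of the 13 G2 and mitosis genes with a CHR word also held a CCAAT, a combination found in 9.65% of all genes. A match describes letters in the window and is not evidence of binding.

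**Figure D1:**
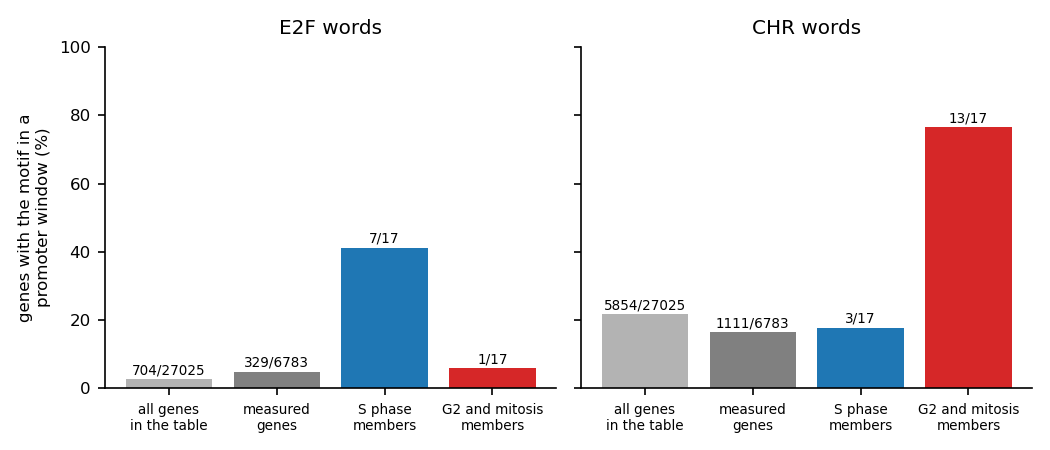
Share of genes (%, vertical axis) with an E2F word (left) or a CHR word (right) in a promoter window, for all genes of the RefSeq table, measured genes, S phase genes and G2 and mitosis genes. Numbers above the bars are genes with the word over genes with a window; E2F words stood in 7 of 17 S phase genes and CHR words in 13 of 17 G2 and mitosis genes.

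S phase promoters are shown first, with and without the E2F words that were more frequent in that phase. Tk1 had the highest log2 ratio among S phase genes, Cdt1 the one closest to 0, and Mcm6, chosen after its sequence was seen, the most E2F words. All are written 5′ to 3′ on the gene's strand, with E2F, CHR and CCAAT words of either strand in capitals. Tk1 lies at chr11:117825965-117826264 (minus strand), Cdt1 at chr8:122567765-122568064 (plus strand) and Mcm6 at chr1:128359656-128359955 (minus strand).
Tk1: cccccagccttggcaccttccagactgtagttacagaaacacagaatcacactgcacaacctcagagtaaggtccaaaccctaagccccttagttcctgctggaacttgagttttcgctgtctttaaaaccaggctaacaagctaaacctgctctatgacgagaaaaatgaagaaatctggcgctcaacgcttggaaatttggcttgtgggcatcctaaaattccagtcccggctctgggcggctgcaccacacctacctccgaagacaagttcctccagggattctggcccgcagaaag
Cdt1: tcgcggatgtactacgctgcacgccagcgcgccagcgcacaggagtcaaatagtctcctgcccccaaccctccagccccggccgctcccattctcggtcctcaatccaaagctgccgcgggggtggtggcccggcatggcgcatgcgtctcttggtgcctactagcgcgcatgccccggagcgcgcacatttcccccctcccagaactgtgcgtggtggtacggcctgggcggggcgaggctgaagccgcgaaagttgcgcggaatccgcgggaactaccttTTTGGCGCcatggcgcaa
Mcm6: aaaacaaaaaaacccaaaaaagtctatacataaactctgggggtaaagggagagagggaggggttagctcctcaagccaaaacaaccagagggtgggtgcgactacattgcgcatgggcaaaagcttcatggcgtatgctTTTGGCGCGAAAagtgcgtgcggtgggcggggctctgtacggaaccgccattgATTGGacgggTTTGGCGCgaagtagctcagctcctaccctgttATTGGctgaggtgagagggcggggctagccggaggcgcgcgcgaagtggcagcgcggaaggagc
The Tk1 window holds none of the words searched. The E2F word of Cdt1 begins at base 33 counted from the annotated start as base 1. Mcm6 holds 3 E2F words, the first at base −110 overlapping the second at −106, and the third at −47, with CCAAT boxes on the other strand at −57 and −14.

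The promoters of G2 and mitosis genes were picked in the same way. Cenpa had the highest log2 ratio among those measured in both pools, Birc5 the one closest to 0, and Top2a, chosen after its sequence was seen, the most CHR words. Cenpa lies at chr5:30666636-30666935 (plus strand), Birc5 at chr11:117848987-117849286 (plus strand) and Top2a at chr11:99024140-99024439 (minus strand).
Cenpa: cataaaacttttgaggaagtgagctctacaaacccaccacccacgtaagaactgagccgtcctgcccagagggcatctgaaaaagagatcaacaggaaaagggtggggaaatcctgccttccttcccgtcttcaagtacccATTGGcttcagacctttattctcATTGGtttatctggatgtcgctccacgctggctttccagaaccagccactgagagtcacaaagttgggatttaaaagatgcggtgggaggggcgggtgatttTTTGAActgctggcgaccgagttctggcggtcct
Birc5: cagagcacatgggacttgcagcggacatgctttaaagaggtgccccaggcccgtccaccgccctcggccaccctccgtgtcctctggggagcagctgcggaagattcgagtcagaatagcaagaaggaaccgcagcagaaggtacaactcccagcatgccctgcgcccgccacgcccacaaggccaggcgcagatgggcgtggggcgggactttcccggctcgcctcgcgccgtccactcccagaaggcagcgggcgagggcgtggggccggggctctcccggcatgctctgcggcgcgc
Top2a: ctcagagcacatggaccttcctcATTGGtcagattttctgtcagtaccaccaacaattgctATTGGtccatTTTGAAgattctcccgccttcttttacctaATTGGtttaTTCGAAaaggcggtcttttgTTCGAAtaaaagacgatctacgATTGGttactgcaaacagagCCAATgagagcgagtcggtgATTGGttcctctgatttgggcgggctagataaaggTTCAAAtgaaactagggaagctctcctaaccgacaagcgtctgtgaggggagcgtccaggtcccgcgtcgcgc
Cenpa holds 2 CCAAT boxes on the other strand, at −109 and −86, and a CHR word at base 17. Top2a holds 4 CHR words, at −179, −140, −120 and −23, and 6 CCAAT boxes, of which the last begins at −58. The Birc5 window holds none of the words searched.

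Among G1 genes, each of the 4 measured members was slightly higher in the transgenic pool, as were 56% of all measured genes. Cdk4, the kinase partner of D cyclins, read 172 in wild type and 225 in transgenic colon (log2 ratio 0.39), and its other probe sets had 0.15 and 0.28. Cyclin D2 (Ccnd2) read 667 and 752 (0.17), but its 7 probe sets ran from −0.12 to 0.28 and did not share a sign. Cyclin D1 (Ccnd1) read 135 and 147 (0.12), with its 3 probe sets between 0.01 and 0.42. Of these genes only Cdk4 exceeded the yardstick of 0.28 by its brightest probe set. That probe set is marked _x_at, a kind whose probes can also bind other transcripts, and the others of Cdk4 lay within the yardstick. Cdk2, the kinase that cyclin E activates, read 42.2 and 47.9 (0.19). Cyclin E1 (Ccne1) stayed under the floor in both pools (10.6 and 9.36).

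Origin licensing and helicase genes were spread around 0, with a median of −0.04. Of 9 measured members 3 lay above 0, against 56% of all measured genes. The MCM proteins form the ring-shaped helicase that is loaded at origins. Mcm2 read 65.9 and 90.0 (log2 ratio 0.45) and was the highest of the 6 MCM genes. Mcm6 read 126 and 139 (0.15) and Mcm4 93.5 and 95.2 (0.03). Mcm7 read 345 and 336 (−0.04). These 3 ratios lay within the yardstick. Mcm3 read 74.1 and 61.0 (−0.28), and Mcm5 read 85.5 and 63.7 (−0.42), the lowest ratio of the 34 cell cycle genes measured in both pools. Summed over the 6 MCM genes, intensity was 790 against 786 in the transgenic pool, a sum weighted towards the brightest of them, Mcm7.

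The MCM ratios depended on the probe set. All 4 MCM probe sets of the kind marked _x_at, whose probes can also bind other transcripts, were lower in the transgenic pool, at log2 ratios from −0.62 (Mcm4) to −0.30 (Mcm7). Of the 6 MCM probe sets with no mark for shared probes or transcripts of any kind (_x, _s or _a) 4 were higher, with a median of 0.09. Over all genes the median was −0.02 for 859 probe sets marked _x_at, of which 450 were lower. It was 0.03 for 7691 with no mark of any kind, of which 4190 were higher. The 4 probe sets of Mcm3 above the floor ran from −0.46 to 0.36, the widest range of any cell cycle gene. Of the 10 S phase genes that more than 1 probe set measured in both pools, 7 had ratios on both sides of 0. The other 3, Mcm2, Rrm1 and Rrm2, were higher by each of theirs. Of all 16 cell cycle genes with several such probe sets, 9 had ratios on both sides of 0. This share was not counted over all genes, so it is not read as particular to S phase genes.

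The loading factors and their inhibitor were lower by their brightest probe sets, Cdt1 and Gmnn by little. Cdt1, which loads the helicase, read 162 and 160 (−0.02) by its brightest probe set and 63.7 and 81.5 (0.36) by another. Geminin (Gmnn), the protein that blocks Cdt1, read 115 and 111 (−0.05). Cdc6, the second loading factor, read 23.8 in wild type and 9.33, below the floor, in transgenic colon, which is at least 1.20-fold lower. Its ratio is a bound set by the floor, and it was −1.35 with the floor at the 20th percentile and −1.29 with a pseudocount and no floor. No other cell cycle gene passed 2-fold under any alternative. Cdc45, a partner of the helicase at the moving fork, was below the floor at 15.2 and 16.2.

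The fork genes differed least. Pcna, the sliding clamp that holds polymerases on DNA, read 982 and 1042 (0.09). Lig1, the ligase that joins lagging-strand fragments, read 46.6 and 52.8 (0.18). Rfc4, a subunit of the clamp loader, read 54.7 and 52.2 (−0.07). The primase gene Prim1 read 119 and 108 (−0.13), while its other probe set had 0.28. All 4 brightest probe sets lay within the yardstick.

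Nucleotide supply held the largest difference among the genes measured in both pools. Tk1, the thymidine kinase of the salvage pathway, read 24.4 in wild type, just above the floor, and 48.4 in transgenic colon. That is 1.98-fold (log2 ratio 0.99), short of the 2-fold threshold, from the only probe set of the gene. Among the alternatives its ratio ran from 0.97 to 0.9996. Rrm2, the regulated subunit of ribonucleotide reductase, read 61.1 and 76.4 (0.32), and its 3 probe sets agreed between 0.28 and 0.40. Rrm1, the large subunit, read 99.1 and 106 (0.10). Dut, which removes dUTP, read 66.3 and 55.2 (−0.26). Thymidylate synthase (Tyms) was below the floor by each of its 3 probe sets, of which the brightest read 14.3 and 11.1, so the salvage and the new synthesis of thymidylate cannot be compared here.

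**Figure D2:**
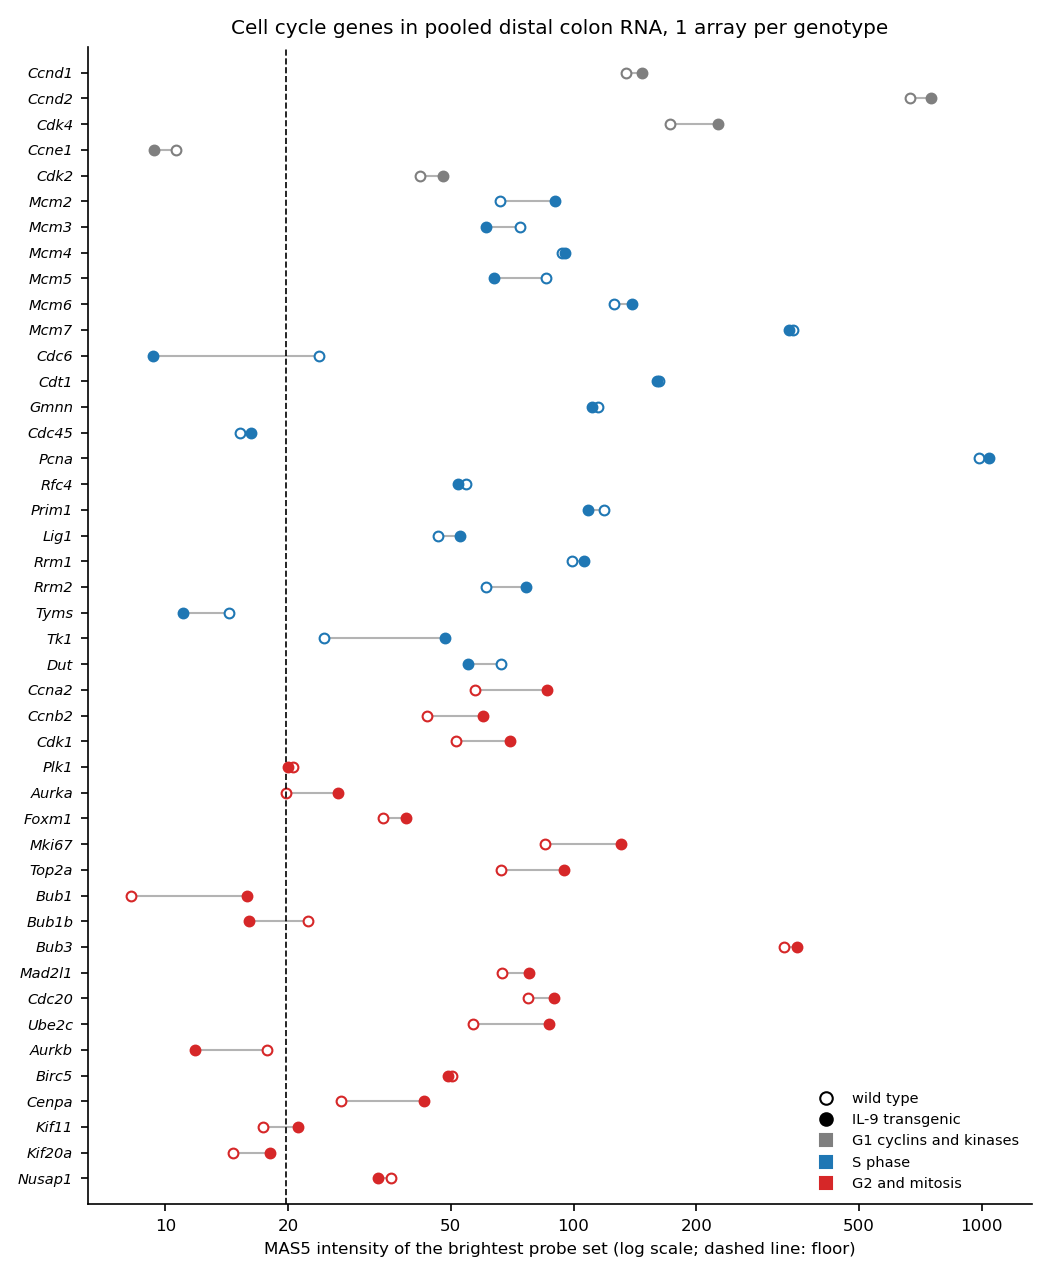
MAS5 intensity (horizontal axis, log scale) of the brightest probe set of each of 44 cell cycle genes in the wild-type pool (open circles) and the IL-9 transgenic pool (filled circles), coloured by phase, with 1 array each. The dashed line is the floor of 19.8; Tk1 has the longest line among genes measured in both pools, from 24.4 to 48.4, while the circles of Mcm4, Mcm7, Cdt1 and Birc5 overlap.

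Genes of mitotic entry were mostly higher in the transgenic pool. Of 8 measured members 7 had a log2 ratio above 0, against 56% of all measured genes. The yardstick was exceeded by 6, against 18.2% of all measured genes, and the median was 0.44. Mki67, the proliferation marker Ki-67 that coats mitotic chromosomes, read 84.9 and 131 (log2 ratio 0.62). Cyclin A2 (Ccna2), which acts in S phase and at mitotic entry, read 57.5 and 86.1 (0.58), although its other probe set had 0.10. Top2a, the topoisomerase that untangles sister chromatids, read 66.6 and 94.9 (0.51). These values are 1.42-fold to 1.54-fold. Cyclin B2 (Ccnb2) read 43.9 and 59.9 (0.45). Its kinase Cdk1 read 51.7 and 70.1 (0.44). Aurka, the kinase of spindle poles, read 19.8 in wild type, marginally under the floor, and 26.5, which is at least 1.34-fold higher. These ratios were nearly equal. Foxm1, a transcription factor of mitotic genes, read 34.1 and 38.8 (0.19), and its 3 other probe sets were below the floor. Plk1, the polo kinase, was at the edge of the floor in both pools, at 20.6 and 19.96 (−0.05).

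Checkpoint and anaphase genes were higher in 4 of 5 measured members, against 56% of all measured genes. Most of these differences were small, and the median was 0.21. Ube2c, the ubiquitin-conjugating enzyme of the anaphase-promoting complex, read 56.7 and 87.0 (0.62). Cdc20, the activator of that complex, read 77.4 and 89.8 (0.21), and its other measured probe set gave 0.24. Mad2l1, the checkpoint protein that holds Cdc20 back, read 66.8 and 77.7 (0.22). Only Ube2c exceeded the yardstick. Bub3, a checkpoint scaffold at kinetochores, read 329 and 353.7 (0.11). The checkpoint kinase gene Bub1b read 22.4 in wild type and 16.0, below the floor, in transgenic colon, at least 1.13-fold lower. Its relative Bub1 stayed under the floor in both pools (8.22 and 15.8).

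Spindle and segregation genes were split. Cenpa, the histone that marks centromeres, read 27.0 and 43.0 (0.67), the second highest ratio among the genes measured in both pools. Birc5 (survivin), a subunit of the chromosomal passenger complex, read 50.3 and 49.4 (−0.03). Nusap1, a microtubule-bundling protein, read 35.7 and 33.2 (−0.11). The difference of Cenpa was not shared by these genes. The spindle motor gene Kif11 read 17.3 and 21.1, at least 1.07-fold higher, and its 2 other probe sets were also at the floor on one or both arrays. Aurkb, the kinase of the passenger complex, was below the floor at 17.8 and 11.8, and so was the motor gene Kif20a at 14.7 and 18.1.

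**Figure D3:**
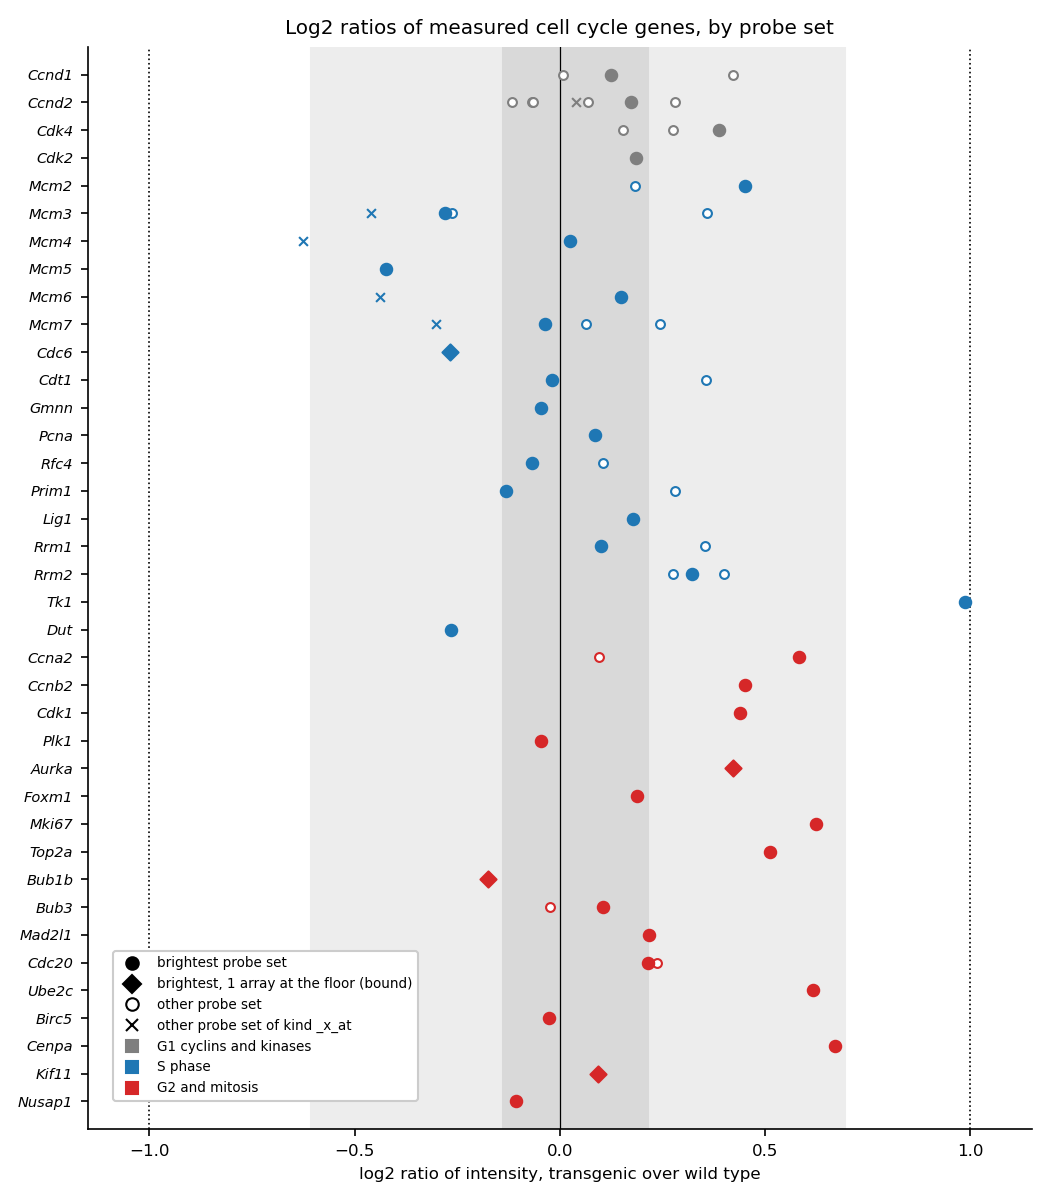
Log2 ratio of transgenic over wild type (horizontal axis) for the 38 measured cell cycle genes: filled symbols are brightest probe sets (diamonds where 1 array was at the floor), open circles and crosses the other probe sets measured in both pools. Dark and light bands hold the middle 50% and 95% of all 8346 measured genes, and dotted lines mark 2-fold; G2 and mitosis genes (red) lie mostly right of 0, S phase genes (blue) on both sides, and 37 of 38 brightest probe sets fall within the light band.

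The G2 and mitosis genes lay above the S phase genes by 0.24 in median log2 ratio, a difference with no test. This gap was positive under each alternative tried, but its size was not fixed. It was 0.10 when probe sets marked _a, _s or _x were left out. Over genes whose mean intensity exceeded the floor, an alternative added after the values were seen, it was 0.42. The S phase median was 0.02 with the mean of all probe sets and 0.12 without the marked probe sets, so its sign was not stable. The G2 and mitosis median ran from 0.20 to 0.42. In the middle 95% of all measured genes, from −0.61 to 0.70, lay all 17 of the G2 and mitosis genes and 16 of 17 S phase genes, with Tk1 as the exception and Cdc6 counted at its bound.

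Other genes of the same phases were read from lists chosen apart from the 45, though with earlier results of these data known. Among 41 measured of 54 other S phase genes the median was −0.04, with 18 above 0 (43.9%, against 56% of all measured genes). None reached 2-fold in either direction. The polymerase α gene Pola1 (49.3 and 31.9, log2 ratio −0.63) and the fork protein gene Wdhd1 (−0.57) were the lowest of those measured in both pools. The replication kinase gene Cdc7, below the floor in transgenic colon, had a bound of −0.52, and the polymerase ε gene Pole, below the floor in wild type, one of 0.51. Among 29 measured of 55 other G2 and mitosis genes the median was 0.06, close to the 0.04 of all measured genes. Above 0 were 16 (55.2%, near the 56% of all measured genes), and none passed 2-fold. Incenp, a partner of Aurkb and Birc5 in the passenger complex, read 56.8 and 102 (0.85), by a probe set marked _x_at. The mitotic brake gene Wee1 read 70.6 and 43.4 (−0.70), the checkpoint-related gene Mad2l2 had −0.64 and the lamin gene Lmnb1 −0.58. So the higher median of the G2 and mitosis genes first named was not found in this wider list at the same floor. With no floor, where 48 genes counted, the median of the wider list was 0.26, and with the mean of all probe sets it was −0.08.

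The promoter words were also counted in these lists. A CHR word stood in 26 of 38 other G2 and mitosis genes with a window (68.4%), and an E2F word in 12 of 35 other S phase genes (34.3%). Of the 15 measured G2 and mitosis genes with a window, the 12 with CHR and CCAAT words had a median log2 ratio of 0.43, from −0.18 to 0.67. The 3 without them, Mad2l1, Birc5 and Nusap1, had a median of −0.03. Over all measured genes the 534 with both words had a median of 0.05 and the other 6249 had 0.04. Among measured S phase genes with a window, the 7 with an E2F word had a median of −0.04 and the 8 without one 0.09. Over all measured genes with a window, the medians with and without an E2F word were 0.02 and 0.04. None of these splits was tested.

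A list of genes that restrain the cycle or regulate those that do had a median of −0.07 over 19 measured of 24. Above 0 were 6 (31.6%, against 56% of all measured genes), and none passed 2-fold. The p27 gene Cdkn1b, an inhibitor of cyclin E and A kinases, read 111 and 82.9 (−0.42). Mdm2, which is no brake itself but the ligase that marks the brake p53 for degradation, read 60.7 and 108 (0.83). The CDK4/6 inhibitor gene Cdkn2c had 0.41 and the stress gene Gadd45g 0.35. Among 9 measured of 10 other cyclins and kinases the median was 0.07, with Cdk5 at 0.70, Ccnt1 at 0.61, Ccnc at −0.33 and Cdk8 at −0.21, genes known mainly for roles in neurons or in transcription.

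**Figure D4:**
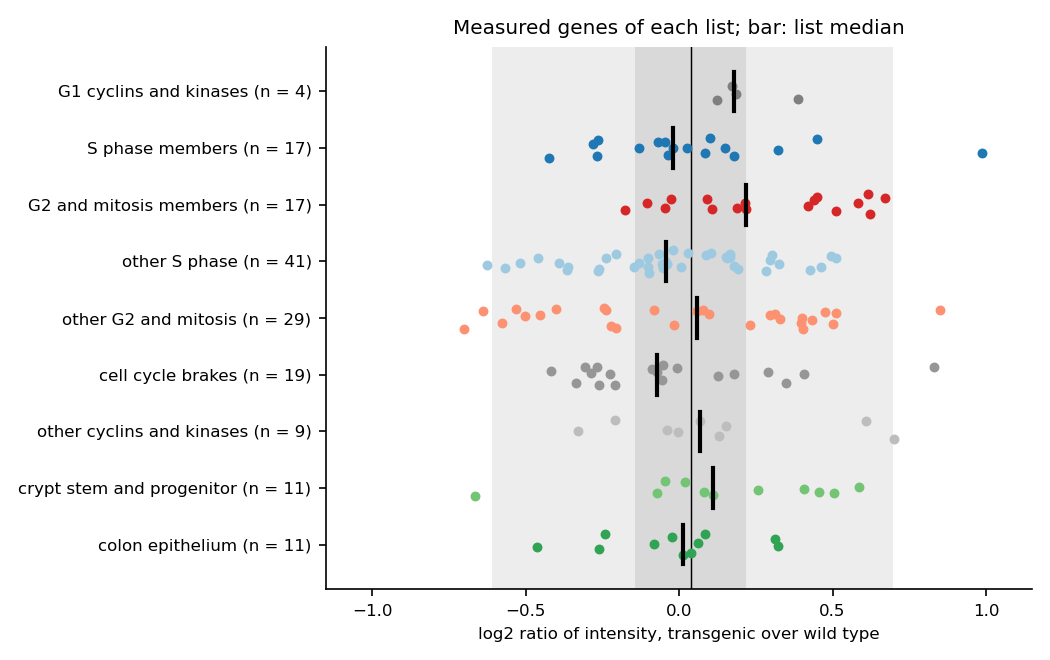
Log2 ratio of transgenic over wild type (horizontal axis) for each measured gene (points, spread vertically for display) of the cell cycle genes by phase, other cell cycle lists, crypt progenitor genes and colon epithelium genes; short black bars are list medians, the long line is the median of all measured genes (0.04) and bands are as in the plot of ratios by probe set. The median of the G2 and mitosis members is 0.22, that of the other G2 and mitosis genes 0.06 and that of the S phase members −0.02.

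RNA of a colon piece comes from several cell types, whose markers were read beside the cell cycle genes. Sums are over all markers of a list with a probe set of their own, those below the floor included. Brackets give how many were measured of how many listed. A sum is weighted towards its brightest markers. In the mast cell list these were Mcpt1 and Mcpt2 (1297 and 1472 in transgenic colon), while Tpsab1 was lower (−0.30). Epithelial markers lay close to 0, with a median of 0.01 over 11 measured of 12 and intensities summing to 16861 and 16373; Cdh1 had −0.46 and Krt18 0.32. Crypt stem and progenitor markers had a median of 0.11 over 11 measured of 14, summing to 1907 and 2301, with Slc12a2 at 0.59, Lgr5 at 0.50, Sox9 at 0.45 and Cdca7 at −0.66. B cell markers summed to 278 and 1040, and all 7 measured of 11 were higher, against 56% of all measured genes. Highest were Ighm (3.19), Cd79a (1.92), Cd22 (1.44), Pou2af1 and Ms4a1 (both 1.14), while Pax5, Blk and Fcer2a were below the floor. Ighm, read by a probe set marked _x_at at 62.6 and 570, made up most of the rise of this sum. The ratio of Cr2 (0.39) is a bound, as Cr2 passed the floor only in the transgenic pool, which fixes its direction. Of 4 germinal centre markers read here, from 7 listed, Bcl6 (−0.20) and Fas (0.42) were measured, and Gcsam and Mybl1 were below the floor. T cell markers summed to 155 and 211 (7 measured of 11, 5 of them only in the transgenic pool, with Cd4, Cd5 and Cd8a below the floor), macrophage markers to 1642 and 1874 (8 of 9) and mast cell markers to 251 and 3324 (8 of 10, with Ms4a2 and Hdc below the floor). Fibroblast and smooth muscle markers summed to 12216 and 11967 (11 of 11), and pancreatic acinar markers to 24233 and 1578 (8 of 10). The part of these cell types in the ratios of the cell cycle genes was not tested.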

How the data were processed

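The authors deposited linear intensities, 1 for each probe set of each array, and the submitters' processing notes name MAS5 with no version. Both arrays have a trimmed mean of 100.04, so no further scaling was applied. Of 22690 probe sets 64 were controls, 20380 had 1 gene symbol, 691 several and 1555 none. The brightest single-symbol probe set stood for its gene, intensities under the floor of 19.8 were set to it, and the log2 ratio was taken (Python 3.11.15, pandas 2.3.3; loess with statsmodels 0.14.6). A ratio with 1 array at the floor is a bound. The number of arrays limits all precision. All 44 analysed symbols matched RefSeq gene identifiers (GRCm38.p6). Members, lists and rules were chosen with earlier results of these data known. Every measured member is named; other lists give up to 4 genes with the largest ratios in size. Printed promoters are those of the S phase and the G2 and mitosis gene with the highest ratio and with the ratio closest to 0, plus 2 chosen after their sequences were seen. The alternatives were median, quantile and loess scaling, floors at the 20th and 60th percentiles, a pseudocount of 0.735 with no floor, the mean of all probe sets, leaving out cross-binding probe sets and, added after the data were seen, a filter on the mean of both arrays. The procedure was tested on simulated arrays with differences of at least 2-fold in genes far brighter than the floor. No difference was simulated in genes near the floor, nor any as small as those of the members.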

Additional observations from a re-analysis of the deposited data

How the results depend on the processing

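No paired analysis was possible because each genotype had 1 pool. No member was 2-fold higher under any alternative, and the number 2-fold lower went from 0 to 1 (Cdc6) with the floor at the 20th percentile and with the pseudocount. Members above 0 numbered 18 of 25 measured with the floor at the 60th percentile and 28 of 44 at the 20th. Marked probe sets are those with an _a, _s or _x mark for shared probes or transcripts. The S phase median was 0.12 when all of them were left out. Cdc6 and Dut, read by _a probe sets, and Mcm7 then gave no value. Cdt1 moved from −0.02 by an _a probe set to 0.36, and Mcm3 from −0.28 by an _s probe set to 0.36. The G2 and mitosis median was 0.29 with the floor at the 20th percentile, 0.35 at the 60th and 0.42 over genes with a mean intensity above the floor. The gap between the phases was 0.37 with the floor at the 60th percentile and 0.42 over genes with a mean intensity above the floor. Without marked probe sets it was 0.10. The median of the other G2 and mitosis genes was 0.21 with the floor at the 20th percentile and 0.26 with the pseudocount. It was -0.081 with the mean of all probe sets and -0.037 without marked probe sets. Of 38 measured members 31 kept their sign under every alternative that gave a value, 22 of them above 0. The exceptions were Mcm3, Mcm4, Mcm6, Cdt1, Rfc4, Prim1 and Bub3. The number of genes admitted differs with the floor or filter. The causes of the changes between alternatives were not tested. The array comparison has 1 pool per genotype, so no pool could be left out. Intensities near the floor limit Cdc6, Plk1, Aurka, Bub1b, Kif11, Tk1 and Cenpa.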
